A study of Homo sapiens with 6 samples.

Results

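Transcripts of 10 genes of the HSP90 chaperone system were followed in HCT116, a human colorectal carcinoma cell line, given a short interfering RNA against STRIP2. The genes were matched by symbol from a list of HSP90 chaperones (HSP90AA1, HSP90AB1, TRAP1) and co-chaperones (AHSA1, STIP1, PTGES3, CDC37, FKBP4, FKBP5, PPID), and each symbol matched 1 row, so that the set was 10 of the 61806 genes in the deposited table. All 10 passed the filter on low counts. The study sequenced poly(A) RNA from 3 control libraries (si-NC, labelled wildtype) and 3 libraries of cells given the STRIP2 short interfering RNA (si-STRIP2, labelled STRIP2 knockdown). STRIP2 is a scaffold protein of STRIPAK, an assembly of phosphatases and kinases, and its knockdown is the only contrast of the design. The samples were of 1 cell line, and the labels name neither the sequence of the short interfering RNA, nor the time of harvest, nor separate cultures, so p-values measure the spread between these libraries, which may be technical. The list was selected on the fold changes of this same comparison, whose results were known when it was proposed, so the fold changes of its genes are given as a description and not as independent evidence.

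HSP90 proteins are ATP-driven chaperones that bind client proteins late in their folding and are closed in the ATP-bound state. HSP90AA1 encodes the stress-inducible cytosolic form, HSP90AB1 the constitutive cytosolic form and TRAP1 the mitochondrial form. Co-chaperones hand clients over from HSP70, set the pace of the ATPase cycle, or recruit one class of client, such as protein kinases or steroid hormone receptors. Tumour cells, colorectal ones among them, typically carry high levels of HSP90, which many oncogenic kinases need to fold.

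Total counts ranged from 17184963 to 21721218 per library, and the counts of the 10 genes from 982 to 91848 in a library. The targeted transcript, STRIP2, went from 3.59 ± 0.347 FPKM in si-NC to 2.61 ± 0.0929 FPKM in si-STRIP2 (SD, n = 3), a log2 fold change of -0.46 (edgeR adjusted p = 1.62e-05). FPKM are counts scaled by the exonic length of the gene and the total count of the library. Of 10 colorectal epithelial markers, 6 reached 1 FPKM, EPCAM, KRT8, KRT18, KRT19, CDH1 and CDX2, while CDX1 was at 0 and VIL1, LGALS4 and CEACAM5 did not exceed 0.13 FPKM in any library. Summed epithelial marker levels were 690.7 to 721 FPKM in si-NC and 668 to 691 FPKM in si-STRIP2. The sum hides moves in both directions. EPCAM, KRT8, KRT18 and CDH1 had lower means in si-STRIP2, CDH1 going from 36.6 to 24.2 FPKM. KRT19 (140 to 164 FPKM) and CDX2 (2.51 to 3.28 FPKM) had higher ones. The 4 leukocyte and 3 endothelial markers did not reach 1 FPKM, and of 4 fibroblast markers only COL1A1 did.

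Of the 10 genes, 9 were higher in si-STRIP2 cells at an edgeR adjusted p under 0.05, and FKBP5 was not called. The count of genes called lower was 0, also under DESeq2 and limma, and FKBP5 had an unadjusted p of 0.81. Among all 15687 genes tested, 54.8% were called, with 27.8% higher and 27.0% lower. In a fit limited to the 6955 genes with at least 5 FPKM in 3 libraries, all 10 included, 5002 were called. Of those calls 2462 were higher and 2540 lower, a larger share than among all tested genes. In the same 9 genes every si-STRIP2 library had a higher FPKM than every si-NC library, while 58.6% of all tested genes had groups without overlap in one direction or the other. Since the genes were chosen with this contrast in view, nothing is read from the difference between these shares. The median log2 fold change of the 10 genes was 0.48, beside 0.014 for all tested genes. The edgeR adjusted p of the 9 called genes lay between 4.60e-18 (HSP90AA1) and 1.35e-08 (FKBP4). In RNA from whole cultures, more cells with a transcript and more transcript per cell cannot be told apart.

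**Figure D1:**
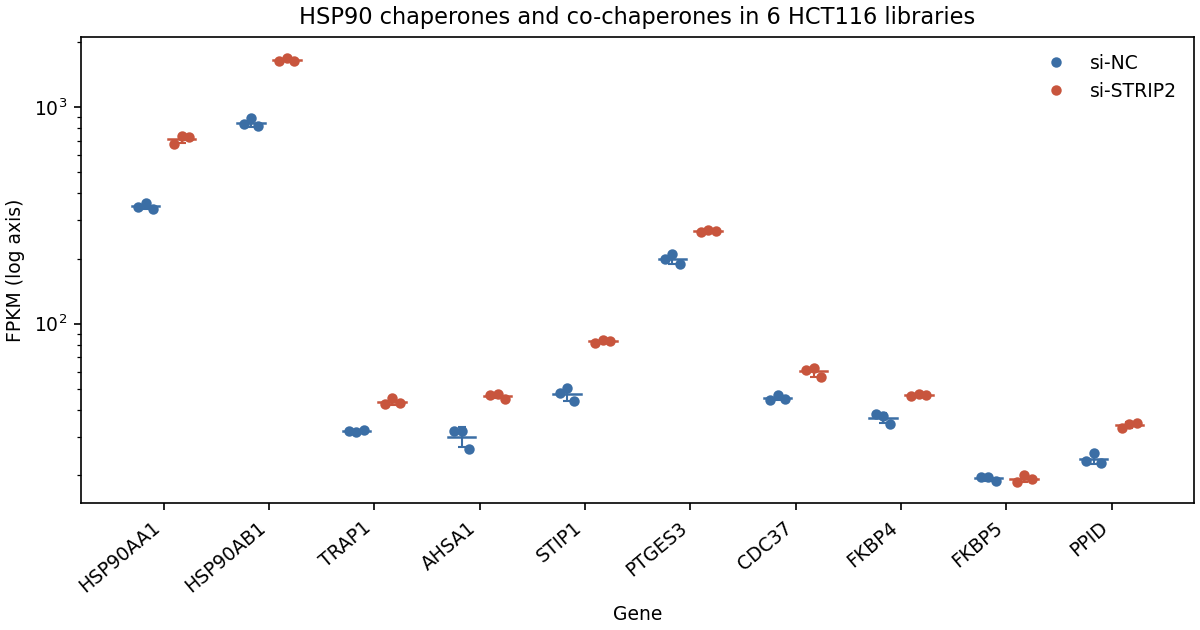
FPKM (log axis) of the 10 genes in each of the 6 libraries. Points are libraries, horizontal lines are group means and bars are SD (n = 3); in 9 genes every si-STRIP2 point lies above every si-NC point, and in FKBP5 the groups overlap.

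The cytosolic chaperones had the highest levels and the largest changes of the set. HSP90AA1 (ENSG00000080824, GRCh38, chromosome 14, 102080742 to 102139699, minus strand) had 347, 360.1 and 338 FPKM in the si-NC libraries and 678, 734 and 732 FPKM in the si-STRIP2 libraries. Its mean went from 348 ± 11.1 to 715 ± 31.7 FPKM (SD, n = 3), a 2.05-fold rise or 1.03 on the log2 scale (SE 0.051). The lowest si-STRIP2 library was far above the highest si-NC library. HSP90AB1 (ENSG00000096384, chromosome 6, 44246166 to 44253888, plus strand) had 839, 888 and 820.0 FPKM in si-NC and 1641, 1689 and 1637 FPKM in si-STRIP2. Its mean went from 849 ± 34.9 to 1656 ± 28.9 FPKM (SD, n = 3), a 1.95-fold rise or 0.96 on the log2 scale (SE 0.051). Of the tested genes, 226 had a larger log2 fold change than HSP90AA1, and 282 a larger one than HSP90AB1. The genes were chosen on this contrast, so these ranks are only described.

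Both genes were among the most abundant transcripts of these cells. By FPKM, HSP90AB1 ranked 21 or 22 among all genes of the table in the si-NC libraries and at 15 in each si-STRIP2 library. HSP90AA1 ranked 61 or 62 in si-NC and between 27 and 32 in si-STRIP2. Together they held 0.430% ± 0.0160 (SD, n = 3) of all counts in control libraries and 0.858% ± 0.0216 after knockdown. The inducible and the constitutive gene kept nearly the same proportion. HSP90AA1 made up 29.3%, 28.9% and 29.2% of their summed FPKM in the si-NC libraries and 29.2%, 30.3% and 30.9% in the si-STRIP2 libraries, so that the groups overlapped. The size of this share depends on the exonic lengths used, 5097 bases for HSP90AA1 and 2980 for HSP90AB1. A share of counts would differ, with 38419 and 54295 counts in si-NC replicate 1. Reads of both genes can be confused with those of their pseudogenes. The 6 annotated pseudogenes of HSP90AA1 held 0.489% as many counts as the parent, and the 9 of HSP90AB1 held 0.231%.

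Heat shock factor, the transcription factor behind the heat shock response, binds inverted repeats of the unit GAA. The RefSeq promoter windows (GRCh38.p14, 250 bases before to 50 after a transcript start) were searched for TTCNNGAANNTTC and GAANNTTCNNGAA, which are each other's reverse complement, so that both strands are covered. These elements of 3 units were found in 172 of 35116 windows (0.490%). Of the 9 genes with a window, HSP90AA1 and HSP90AB1 had such an element, and of 20 other HSP90 co-factor genes with a window (a list described below) CHORDC1 had one. It was in 1 of 2 windows of HSP90AA1, in 1 of 3 of HSP90AB1 and in the 1 window of CHORDC1. Genes without a window were not searched. Since these elements are rare and set the 3 genes apart from the other genes searched in these lists, 30 bases at each are shown. They run 5′ to 3′ on the gene's strand, with the GAA and TTC units of the matches in capitals.

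HSP90AA1, chr14:102087104-102087133: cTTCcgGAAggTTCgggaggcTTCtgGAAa

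HSP90AB1, chr6:44247777-44247806: gTTCtgGAAgaTTCatgggctccttcctcc

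HSP90AB1, chr6:44247830-44247859: gTTCtgGAAgcTTCtggattctggcgcccc

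CHORDC1, chr11:90223081-90223110: gGAAaaTTCgcGAAggTTCctGAAacgcaa

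The HSP90AA1 stretch runs from position -89 to -60 relative to a RefSeq start and holds a second pair of units behind the first element. In GENCODE 29 it lies in the first exon, within the 5′ UTR, of the transcript HSP90AA1-201. Both HSP90AB1 stretches lie upstream of a RefSeq start at position 44247943, in no exon of the GENCODE 29 basic set but within the gene. The CHORDC1 stretch holds 5 units in alternating orientation and lies in the 5′ UTR of CHORDC1-201. The shorter motif of 2 units, TTCNNGAA or GAANNTTC, is part of the longer one and was present in 13.5% of windows. It was found in 1 more gene of the set, STIP1, beginning 14 bases after a start. No match to either motif was found in the windows of TRAP1, AHSA1, PTGES3, CDC37, FKBP5 and PPID, and FKBP4 had no entry.

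The other genes with the element of 3 units were looked at as well. Of 57 genes with it that were tested, HSP90AA1, HSP90AB1 and CHORDC1 included, 19 were called higher (33.3%) and 13 lower (22.8%), beside 29.7% and 28.7% of the 11074 tested genes with a promoter window, which include the 57. The difference between these shares was not tested. Their median log2 fold change was 0.068, beside 0.0088 for the 11074. The 6 highest of the 57 were chaperone genes or their partners, namely HSPA8 (log2 fold change 1.64), HSP90AA1 (1.03), DNAJA1 (1.03), HSP90AB1 (0.96), CHORDC1 (0.89) and HSPD1 (0.77). These were picked out after their values were seen. A match to these letters is a description of the sequence and not a shown binding site.

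TRAP1, the mitochondrial paralog, rose by a smaller fold than the cytosolic pair. It had 31.9, 31.5 and 32.2 FPKM in si-NC and 42.7, 45.3 and 42.8 FPKM in si-STRIP2 (ENSG00000126602, chromosome 16, 3651639 to 3717553, minus strand). The means were 31.9 ± 0.336 and 43.6 ± 1.46 FPKM (SD, n = 3), a 1.37-fold rise or 0.45 on the log2 scale (SE 0.040). The endoplasmic reticulum paralog HSP90B1, which is not one of the 10 genes, had 195 ± 6.53 FPKM in control libraries and 179 ± 3.44 FPKM after knockdown (log2 fold change -0.12, SE 0.048), a small fall by edgeR (adjusted p = 0.0274). That call was lost without si-NC replicate 1 or 2 and without si-STRIP2 replicate 1 or 2 (edgeR adjusted p from 0.0642 to 0.138), and with replicate number as a block (0.0622). In each library HSP90AB1 was also set against HSP90B1 directly. The ratio of their FPKM was 4.36 ± 0.0405 in the 3 control libraries and 9.25 ± 0.218 in the 3 knockdown libraries (SD). It restates the rise of HSP90AB1, which was chosen on this contrast, and was not tested.

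Among co-chaperones, STIP1 and AHSA1 had the largest rises. STIP1, an adaptor that links HSP70 to HSP90 and passes clients between them, had 47.7, 50.7 and 43.9 FPKM in si-NC and 81.5, 84.5 and 82.8 FPKM in si-STRIP2. It rose 1.74-fold, or 0.80 on the log2 scale with an SE of 0.043 (ENSG00000168439, chromosome 11, 64185272 to 64204543, plus strand). AHSA1, the activator of the HSP90 ATPase, had 31.85, 32.0 and 26.4 FPKM in si-NC and 46.7, 47.6 and 45.0 FPKM in si-STRIP2. It rose 1.54-fold (log2 fold change 0.62, SE 0.051; ENSG00000100591, chromosome 14, 77457870 to 77469472, plus strand). Its si-NC replicate 3 lay below the other controls, and AHSA1 had the widest control spread of the set, with a coefficient of variation of 10.7%. The related AHSA2P, annotated as a pseudogene, held 31.9% as many counts as AHSA1 and rose from 2.95 ± 0.362 to 4.99 ± 0.248 FPKM (log2 fold change 0.76, edgeR adjusted p = 1.32e-11). VIPAS39, which overlaps AHSA1 on the opposite strand and held 18.5% as many counts, also rose, with a log2 fold change of 0.87. Whether counting used the strand is not given in the sources used here, and the part of the overlap in the AHSA1 value was not tested.

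PTGES3 and CDC37 had similar fold changes. PTGES3, the co-chaperone that stabilises the closed, ATP-bound state, was the most abundant co-chaperone, with 199, 209.6 and 188 FPKM in si-NC and 264, 271 and 267 FPKM in si-STRIP2. The rise was 1.34-fold (log2 fold change 0.42, SE 0.044; ENSG00000110958, chromosome 12, 56663341 to 56688408, minus strand). CDC37, which loads protein kinases onto HSP90, had 44.55, 46.8 and 45.1 FPKM in si-NC and 61.25, 62.7 and 56.6 FPKM in si-STRIP2. It rose 1.32-fold (log2 fold change 0.40, SE 0.042; ENSG00000105401, chromosome 19, 10391133 to 10420121, minus strand). The groups did not overlap for either gene. PDE4A, opposite to CDC37, held 21.5% as many counts and was not called, with a log2 fold change of -0.11 (edgeR adjusted p = 0.104).

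The immunophilins, peptidyl-prolyl isomerases that bind HSP90 through tetratricopeptide repeats and sit in steroid receptor complexes, differed in their fold changes, PPID and FKBP4 being called and FKBP5 not. PPID had 23.3, 25.1 and 22.7 FPKM in si-NC and 32.85, 34.3 and 34.9 FPKM in si-STRIP2, a 1.43-fold rise (log2 fold change 0.52, SE 0.047; ENSG00000171497, chromosome 4, 158709127 to 158723396, minus strand). The gene ETFDH, on the opposite strand, overlaps PPID, held 48.6% as many counts and had a log2 fold change of 0.26. FKBP4, which favours hormone binding by steroid receptors, had 38.2, 37.5 and 34.4 FPKM in si-NC and 46.4, 47.1 and 46.9 FPKM in si-STRIP2. Its 1.27-fold rise was the smallest of the 9 (log2 fold change 0.35, SE 0.042; ENSG00000004478, chromosome 12, 2794970 to 2805423, plus strand).

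FKBP5, the paralog of FKBP4 that lowers the hormone affinity of the glucocorticoid receptor and is itself a target gene of that receptor, had nearly the same level in both groups. It had 19.6, 19.6 and 18.7 FPKM in si-NC and 18.5, 19.9 and 19.2 FPKM in si-STRIP2 (ENSG00000096060, chromosome 6, 35573585 to 35728583, minus strand). The means were 19.3 ± 0.479 and 19.2 ± 0.705 FPKM (SD, n = 3), and the groups overlapped. On the log2 scale the difference was -0.0100 (SE 0.041, edgeR adjusted p = 0.856), and it lay between -0.036 and 0.025 over 15 other ways of computing it. The standard error was no larger than that of FKBP4, so that both paralogs were measured with like precision. Within libraries the ratio of FKBP4 to FKBP5 stood at 1.95, 1.92 and 1.84 for the controls and at 2.51, 2.36 and 2.44 for the knockdown, with no overlap. This ratio comes from the contrast by which the genes were chosen and was not tested.

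**Figure D2:**
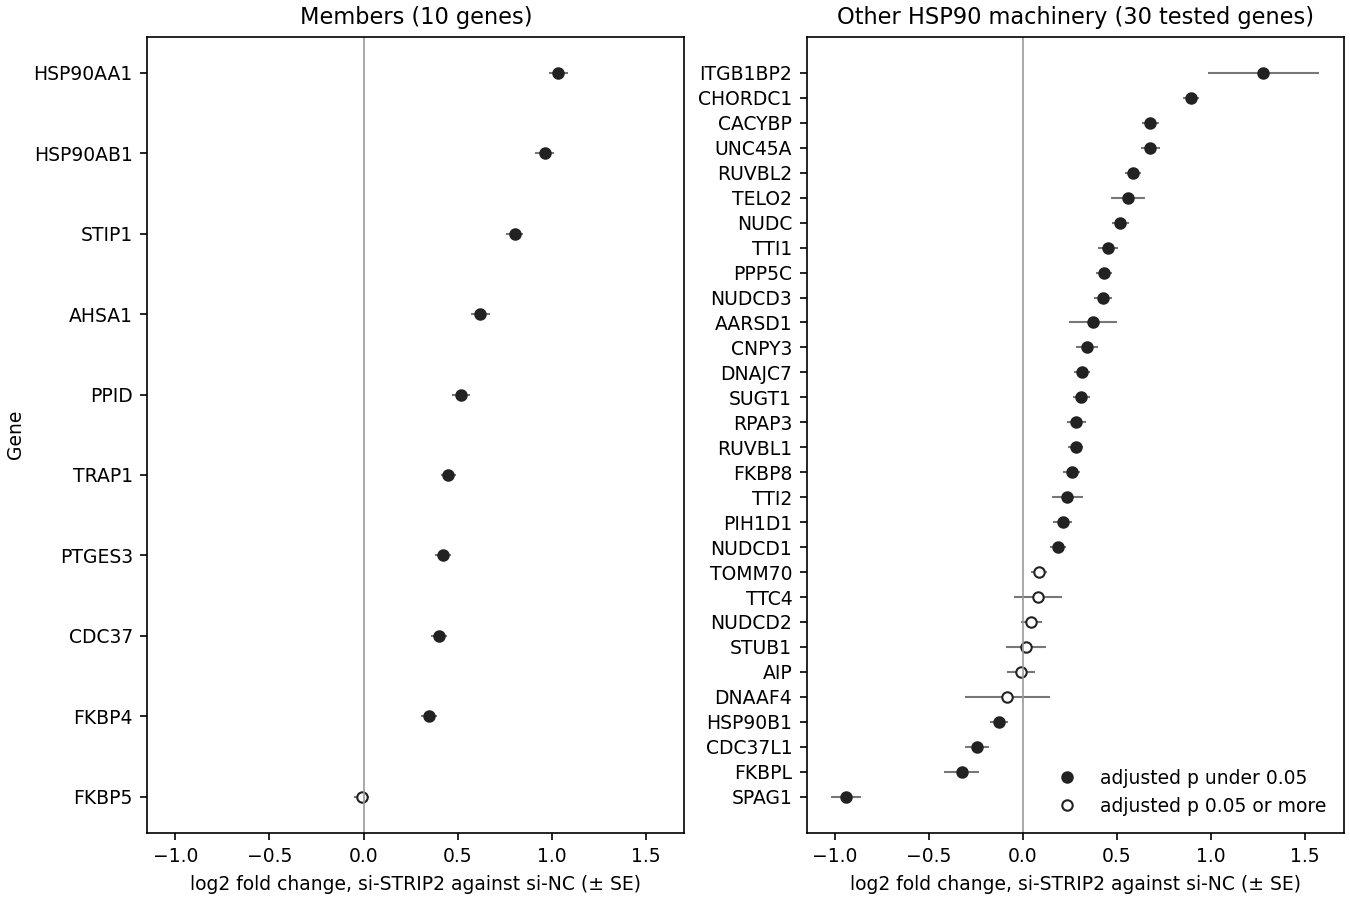
Log2 fold change (si-STRIP2 against si-NC) with its standard error for the 10 genes on the left and for 30 other tested genes of the HSP90 machinery on the right. Filled points passed an edgeR adjusted p under 0.05; on the left 9 of 10 lie to the right of 0, and FKBP5 lies at 0.

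The order of levels within the set was nearly the same in both groups. In si-NC it ran HSP90AB1, HSP90AA1, PTGES3, STIP1, CDC37, FKBP4, TRAP1, AHSA1, PPID and FKBP5 by mean FPKM. STIP1 and CDC37 overlapped there, at 43.9 to 50.7 and 44.55 to 46.8 FPKM, and so did TRAP1 and AHSA1. In si-STRIP2 cells STIP1 no longer overlapped CDC37, and AHSA1 stood above TRAP1 by mean, although its values overlapped both TRAP1 and FKBP4.

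Since the fold changes of the cytosolic chaperones were larger than those of their partners, each co-chaperone was expressed per 100 FPKM of HSP90AA1 plus HSP90AB1 in the same library. On this scale any gene with a smaller fold than the cytosolic chaperones is lower after knockdown by construction, FKBP5 included, so the direction is no finding and only the sizes are described. PTGES3 had 16.8, 16.8 and 16.2 in si-NC and 11.4, 11.2 and 11.3 in si-STRIP2. STIP1 changed least in proportion, from 3.96 ± 0.146 to 3.50 ± 0.0138 (SD, n = 3), and FKBP5 most, from 1.61 ± 0.0420 to 0.810 ± 0.0120 (SD, n = 3). The 7 co-chaperones summed to 402 ± 21.2 FPKM in control libraries and 557 ± 8.63 FPKM after knockdown, while the cytosolic chaperones summed to 1197 ± 45.9 and 2370.3 ± 51.9 FPKM (SD, n = 3). These are ratios of transcripts and say nothing of protein amounts.

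**Figure D3:**
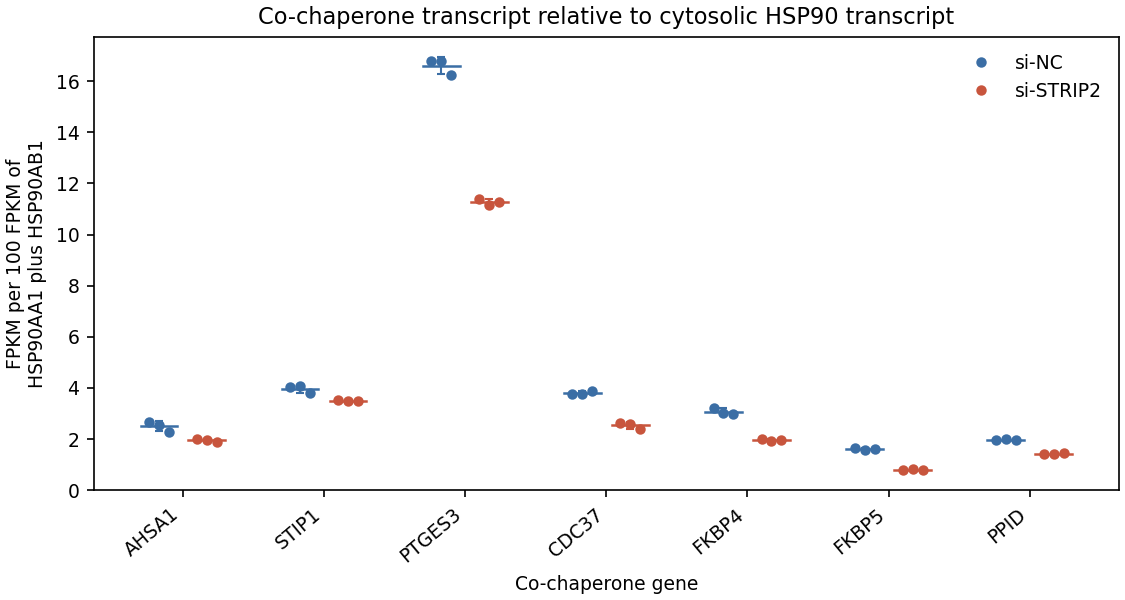
FPKM of each co-chaperone per 100 FPKM of HSP90AA1 plus HSP90AB1 in the same library. Points are libraries, lines are means and bars are SD (n = 3); the mean for PTGES3 is 16.6 in si-NC and 11.3 in si-STRIP2, and the lower position of si-STRIP2 follows from the larger fold of the denominator.

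A list of 33 further genes of the HSP90 machinery was made by function. It was made with earlier results of these data known, so its shares are only described, and 30 of the genes were tested. Of these, 20 rose (66.7%), 4 fell (13.3%) and 6 were not called, beside 27.8% higher and 27.0% lower among all tested genes. The median log2 fold change of the list was 0.28, beside 0.014 for all tested genes. CHORDC1, a co-chaperone with zinc-binding CHORD domains, went from 6.67 ± 0.220 to 12.4 ± 0.490 FPKM (SD, n = 3; log2 fold change 0.89, SE 0.044, edgeR adjusted p = 5.92e-18). CACYBP, which carries a CS domain as PTGES3 does, rose from 22.3 ± 1.38 to 35.7 ± 0.457 FPKM (log2 fold change 0.68). UNC45A, the chaperone of myosin, had a log2 fold change of 0.68, and RUVBL2, an ATPase of the R2TP complex that assembles large kinases with HSP90, had one of 0.58. Opposite-strand genes held 13.8% and 13.7% as many counts as CACYBP and UNC45A.

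Of the 4 falls, the largest was that of SPAG1. SPAG1, an assembly factor of axonemal dynein, went from 5.49 ± 0.536 to 2.87 ± 0.157 FPKM (log2 fold change -0.94, SE 0.080, edgeR adjusted p = 5.47e-12), but the overlapping gene RNF19A held 258% as many counts and had a log2 fold change of -0.53. FKBPL and CDC37L1, relatives of the immunophilins and of CDC37, had log2 fold changes of -0.32 and -0.25 (edgeR adjusted p = 0.00343 and 0.00155). HSP90B1, described above, was the other one.

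Transcripts of proteins that depend on HSP90 were examined with a list of 34 textbook clients. This list, too, was made with earlier results known, so its shares are only described, and 29 of the genes were tested. Of these, 6 rose (20.7%), 13 fell (44.8%) and 10 were not called, beside 27.8% higher and 27.0% lower among all tested genes. The median log2 fold change was -0.074, beside 0.014 for all tested genes. That median was -0.017 without si-STRIP2 replicate 3, -0.13 with no filter on low counts and -0.14 under DESeq2. The largest rises among clients of at least 5 FPKM were those of the cell cycle kinases PLK1 (log2 fold change 0.34), WEE1 (0.23), CDK4 (0.20) and CDK6 (0.16). The CDK6 call was lost without si-NC replicate 1 (edgeR adjusted p = 0.104), under DESeq2 (0.0736) and under limma (0.0781). Genes opposite to CDK4, TSPAN31 and MARCHF9, held 15.5% and 12.8% as many counts as CDK4. Among clients with a mean of 5 FPKM or more in either group, the largest falls were those of HIF1A, the oxygen-regulated transcription factor, from 79.3 ± 3.06 to 52.6 ± 0.847 FPKM (log2 fold change -0.59, edgeR adjusted p = 1.99e-14), of the kinases CHUK (-0.39) and ABL1 (-0.24), and of the glucocorticoid receptor gene NR3C1 (-0.26). HSF1, which encodes the main heat shock factor and a client, had 11.1 ± 0.387 FPKM in si-NC and 10.6 ± 0.874 FPKM in si-STRIP2 and was not called (log2 fold change -0.074, edgeR adjusted p = 0.239). Its opposite-strand neighbour DGAT1 held 28.4% as many counts.

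Because FKBP5 is a glucocorticoid target, 10 textbook target genes of that receptor were set beside it. They were listed with earlier results of these data known, so their shares are only described, and 9 were tested. By edgeR 0 rose, 6 fell (66.7%) and 3 were not called, and the count of rises was also 0 at an unadjusted p under 0.05, under DESeq2 and under limma. Among all tested genes 27.8% were higher and 27.0% lower. The list had a median log2 fold change of -0.38, beside 0.014 for all tested genes. That median is the value of CEBPD, a gene at a mean of 1.70 FPKM in si-NC and 1.31 FPKM in si-STRIP2. With 1 library left out the median of the list ranged from -0.56 to -0.27. ERRFI1, a feedback inhibitor of the EGF receptor, fell from 449.6 ± 16.5 to 198 ± 1.33 FPKM (log2 fold change -1.18, edgeR adjusted p = 5.73e-21). DUSP1, a phosphatase of MAP kinases, and KLF9, a transcription factor, had log2 fold changes of -1.14 and -1.04, and GADD45B one of -0.51. The falls of TSC22D3 (-0.15) and MT2A (-0.13) were small, and their calls were lost when single libraries were left out. TSC22D3 was no longer called without si-NC replicate 1 (edgeR adjusted p = 0.0551), without si-STRIP2 replicate 1 (0.0520) or under DESeq2 (0.0645), nor was MT2A without si-STRIP2 replicate 3 (0.0643). PER1 (0.078) and CEBPD (-0.38) were not called. The median was -0.79 over the 6 of these genes that passed a filter of 5 FPKM in 3 libraries. Many of these genes also answer to other signals, and no hormone treatment is named in the labels.

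**Figure D4:**
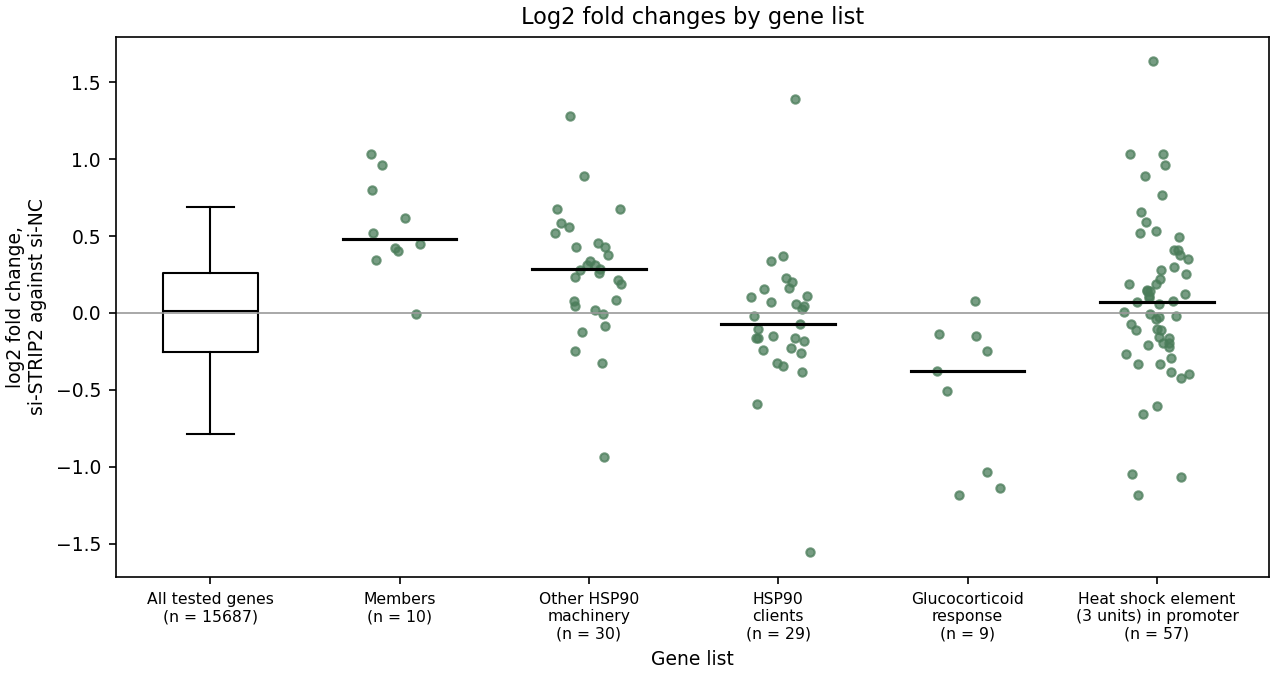
Log2 fold changes (si-STRIP2 against si-NC) of single genes (points) by list, with the median of each list as a line. The box gives the quartiles of all 15687 tested genes with whiskers at the 5th and 95th percentiles; the medians are 0.48 for the 10 genes, 0.28 for other HSP90 machinery, -0.074 for clients, -0.38 for glucocorticoid response genes and 0.068 for genes with the element of 3 units.

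Genes with the most similar profile were sought among the 2092 other genes with a symbol and a mean of at least 20 FPKM, by the Euclidean distance between log2 CPM (counts scaled to library size) centred on each gene's mean over the 6 libraries. The nearest to HSP90AA1 were XRCC6 (distance 0.087), DNAJA1 (0.099), HSP90AB1 (0.12), MCM3 (0.12) and ATP5MC1 (0.22). For HSP90AB1 the 5 nearest were XRCC6 (0.049), MCM3 (0.088), ATP5MC1 (0.12), HSP90AA1 (0.12) and DNAJA1 (0.13). XRCC6 encodes a DNA end-binding subunit of the Ku complex, MCM3 a subunit of the replicative helicase, DNAJA1 a J-domain partner of HSP70 and ATP5MC1 a subunit of ATP synthase. These genes rose by 0.89 to 1.03 on the log2 scale, and since the libraries fall into 2 groups the distance depends largely on the size of the change between them.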

How the data were processed

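Poly(A) RNA libraries of HCT116 cells, 3 si-NC and 3 si-STRIP2, were compared. Per the submitters' processing notes, bcl2fastq 2.20.0.422, FastQC 0.10.1, cutadapt 1.9.1, HISAT2 2.2.1, HTSeq 0.6.1 and GRCh38.p13 were used, and the strand setting is not given in the sources used here. The authors deposited whole-number counts per gene and FPKM, which differed from FPKM recomputed from counts, exonic size and column total by at most 0.0050. The filterByExpr rule of edgeR with a minimum count of 10 retained 15687 genes for testing. Counts were tested in R 4.3.3 with edgeR 4.0.16 (TMM factors 0.990 to 1.01, quasi-likelihood F test, 2-sided, group as the only term), with Benjamini-Hochberg adjustment over all tested genes and a threshold of 0.05. Standard errors are the absolute log2 fold change over the square root of F. Alternatives used DESeq2 1.42.0 and limma 3.58.1 (pseudocount 1). Chi-square per degree of freedom between libraries of a group was 4.48 to 15.1 in si-NC and 2.05 to 2.17 in si-STRIP2. No pair agreed within counting noise, and the controls varied more. The mitochondrial share of counts was 4.88% to 8.88% in si-NC and 5.73% to 6.30% in si-STRIP2. Counts of 15687 genes were also simulated with the library sizes of this comparison and only a few genes changed. Of 98 genes changed by 0.5 on the log2 scale 72.4% were recovered, and of 96 changed by 1, 95.8%. Of the simulated calls, 4.68% were false. Far more genes were called in the data, so these shares need not hold for them.

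The members and lists were chosen with earlier results of these data known. Named besides the 10 genes and STRIP2 were the 4 largest called rises and 4 largest falls of the machinery and client lists with at least 5 FPKM in the higher group, glucocorticoid genes with at least 1 FPKM, the 5 nearest profiles, and pseudogenes with over 5% of their parent's counts. Other genes were named after their values were seen. Promoter sequences are from RefSeq (GRCh38.p14), with 9 of 10 genes matched by symbol.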

Additional observations from a re-analysis of the deposited data

How the results depend on the processing

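Calls were recomputed under 14 alternatives, and member fold changes also with pseudogene counts added. Each alternative called 9 of the 10 genes, all higher, and the log2 fold change of those 9 kept its sign and call in all 15 settings, with values for HSP90AA1 from 1.01 to 1.08 and for AHSA1 from 0.53 to 0.67. FKBP5 was not called in any, its log2 fold change ranged from -0.036 to 0.025 with 1 library left out, and its sign turned when replicate 1 of si-NC (0.0053) or of si-STRIP2 (0.025) was left out. Over all genes, 8599 of 15687 tested were called. With the filter of 5 FPKM in 3 libraries it was 5002 of 6955, a lower count but a larger share. With replicate number as a block, 8293 genes and 9 of the 10 were called, with 23 of the machinery list, 18 clients and 6 glucocorticoid genes (without it 24, 19 and 6); HSP90B1 and CHEK1 lost their calls. Deviations of same-numbered libraries from their group means correlated at -0.086, -0.013 and -0.072, and those of differently numbered ones at -0.040 to 0.11. Since deviations within 3 libraries must balance, these values cannot show whether the libraries were paired. With each library left out in turn, calls over all genes ranged from 7690 to 8494. The lowest count of the 10 genes in a library was 982, and the effect of depth on their calls was not tested.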
